A study of Mus musculus with 4 samples.

Results

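The genes described here are 31 that make cholesterol or fatty acids, read in adherent mouse spleen cells that form tight colonies (SACCs) and in adherent spleen cells that stayed a monolayer (controls). They were taken by gene symbol, and a gene with several probe sets was read from its brightest one, by the mean of the 4 arrays, out of 64 probe sets. Of the 31 genes, 30 were measured, among 19761 genes and 45037 probe sets in all, and Idi1 had no probe set under its own symbol alone. The sterol arm held 20 of them and the fatty acid arm 10. All 30 lay above the median of every array, as did 11306 of all 19761 genes when read in the same way.

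All cells came from spleens of C57BL/6J mice, cut in 6 pieces and cultured in an RPMI medium with 5% fetal bovine serum, the plain medium. Total RNA was hybridised to 4 Affymetrix arrays, 2 of SACCs (cell state compact colony) and 2 of controls (monolayered cells). For SACC replicate 1 the plain medium had been replaced, once colonies appeared at about 7 to 14 days, by the serum-free StemMedium for embryonic stem cells (ES medium), while SACC replicate 2 and both controls carry the label plain medium. The labels name control replicate 1 as the reference of SACC replicate 1 (the ES pair) and control replicate 2 as that of SACC replicate 2 (the plain pair), so in the ES pair medium and cell state differed together and cannot be told apart. The cells were selected by adherence and colony shape only, and the labels do not say whether the arrays stand for separate mice or cultures. Every p-value therefore covers only the spread among these 4 arrays, part or all of which may be technical. Levels are the deposited log2 values, a ratio is the log2 level of the SACC array less that of its own control, so that a 2-fold higher level in SACCs gives 1. The pairs lie in tables that appear to have been normalized separately, and this limits every level that is set across pairs.

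Cells build cholesterol from acetyl-CoA through mevalonate, farnesyl diphosphate and squalene, which is closed to lanosterol and then trimmed to cholesterol. The same acetyl-CoA, carboxylated to malonyl-CoA, is the source of palmitate, which is elongated and desaturated to the fatty acids of membranes and stores. The membrane-bound factor SREBP2 (gene Srebf2) drives mainly the sterol enzymes and is held back by INSIG proteins when sterols are plentiful. SREBP1 (gene Srebf1) drives mainly the fatty acid enzymes, and its SREBP1c form is itself a target of the oxysterol receptors LXR. SREBP factors bind short promoter elements and act together with NF-Y, which binds CCAAT boxes, and with Sp1, which binds GC boxes.

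Promoters are shown first so that the letters these factors are known to bind can be compared between the arms, and no relation of motifs to ratios was tested. RefSeq promoter windows (GRCm38.p6, 250 bases before to 50 after a gene's start) were at hand for 17 of the 21 listed sterol genes and 7 of the 10 fatty acid genes. CCAAT, read on both strands, was found in 16 of the 17 sterol genes (94.1%) and in 4 of the 7 fatty acid genes (57.1%). The same letters stood in 41.1% of all 27025 genes with a window and in 42.2% of the 8664 genes that were also above the median of every array. By window in place of gene, the share was 80% for the sterol arm and 37.4% over all windows. The GC box letters GGGCGG were in 16 of 17 sterol genes and 4 of 7 fatty acid genes (57.1%). They were in 70% of the genes above the medians and 38.2% of all genes. The E-box CACGTG was in 4 of 17 sterol genes (Hsd17b7, Insig1, Dhcr7 and Sc5d) and 0 of 7 fatty acid genes. It was in 11.9% of the genes above the medians and in 8.09% of all genes. The core of the classical sterol regulatory element, TCACNCCAC, was in 1 sterol gene, Hmgcs1, in 0 of 7 fatty acid genes and in 1.44% of all genes. A match describes the letters of a window, not a bound site.

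The 250 bases before the start of 4 sterol genes and of 2 fatty acid genes are given 5′ to 3′ on the strand of the gene, with matches to the 4 motifs in capitals. Hmgcs1 (chr13:119690101-119690350, plus strand) holds the TCACNCCAC match, 137 to 129 bases before the start, with CCAAT boxes on both sides of it. Cyp51 (chr5:4104698-4104947, minus strand) and Msmo1 (chr8:64733579-64733828, minus strand) are lanosterol enzymes with 1 and 3 CCAAT boxes. Insig1 (chr5:28071162-28071411, plus strand) holds the E-box. Fasn (chr11:120824548-120824797, minus strand) has 3 CCAAT matches, of which 2 on opposite strands overlap. Fads2 (chr19:10101504-10101753, minus strand) holds 1 GC box and no CCAAT.
Hmgcs1: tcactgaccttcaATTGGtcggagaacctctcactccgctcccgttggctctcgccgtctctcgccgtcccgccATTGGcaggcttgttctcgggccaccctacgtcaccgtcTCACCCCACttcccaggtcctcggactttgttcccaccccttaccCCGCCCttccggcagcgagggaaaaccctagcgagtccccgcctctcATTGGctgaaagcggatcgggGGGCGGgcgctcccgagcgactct
Cyp51: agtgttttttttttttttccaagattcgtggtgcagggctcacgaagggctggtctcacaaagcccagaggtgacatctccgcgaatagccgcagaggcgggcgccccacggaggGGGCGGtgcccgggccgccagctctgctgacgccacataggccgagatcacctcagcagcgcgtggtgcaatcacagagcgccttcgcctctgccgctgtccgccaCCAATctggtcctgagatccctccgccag
Msmo1: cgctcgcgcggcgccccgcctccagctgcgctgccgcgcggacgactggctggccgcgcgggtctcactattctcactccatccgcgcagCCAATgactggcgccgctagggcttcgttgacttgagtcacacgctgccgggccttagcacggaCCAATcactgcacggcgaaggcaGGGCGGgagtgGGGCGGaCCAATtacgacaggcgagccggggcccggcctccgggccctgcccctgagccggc
Insig1: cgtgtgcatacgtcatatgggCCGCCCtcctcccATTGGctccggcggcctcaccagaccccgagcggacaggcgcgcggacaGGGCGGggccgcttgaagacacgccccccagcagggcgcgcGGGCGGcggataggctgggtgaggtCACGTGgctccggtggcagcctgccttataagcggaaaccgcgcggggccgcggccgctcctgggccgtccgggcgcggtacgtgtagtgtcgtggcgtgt
Fasn: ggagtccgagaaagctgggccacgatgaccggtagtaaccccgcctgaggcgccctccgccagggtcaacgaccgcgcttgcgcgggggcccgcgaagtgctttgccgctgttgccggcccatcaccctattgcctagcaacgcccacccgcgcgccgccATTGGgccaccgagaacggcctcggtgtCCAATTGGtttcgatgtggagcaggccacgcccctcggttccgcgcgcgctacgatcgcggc
Fads2: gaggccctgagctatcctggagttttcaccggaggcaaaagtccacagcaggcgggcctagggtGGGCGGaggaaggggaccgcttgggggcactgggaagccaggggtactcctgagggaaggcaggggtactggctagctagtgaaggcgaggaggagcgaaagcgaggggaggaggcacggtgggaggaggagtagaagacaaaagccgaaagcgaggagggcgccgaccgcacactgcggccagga

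The first question was whether the sterol arm and the fatty acid arm moved alike between colonies and monolayer. They did not have the same pattern. Fatty acid genes were mostly higher in SACCs of both pairs, whereas sterol genes were mostly somewhat higher in SACCs of the ES pair and lower in SACCs of the plain pair. The median ratio of the fatty acid arm was 0.76 in the ES pair and 0.35 with plain medium. That of the sterol arm was 0.26 and -0.68, while the medians of all genes were -0.01 and -0.02. The medians of the arms thus lay 0.5 (ES pair) and 1.03 (plain pair) apart, the fatty acid arm above in each. No test was made of this difference between the arms.

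Counted by sign, 14 of 20 sterol genes had a positive ratio in the ES pair and a negative one in the plain pair, a pattern of 16.5% of all genes and of 16.6% of genes above the median of every array. Among these 14, Tm7sf2 and Insig1 had ES ratios of only 0.01 and 0.02, and after quantile normalization the count was 12. Another 3 (Acat2, Fdft1 and Hsd17b7) were higher in both pairs, and 3 (Pmvk, Dhcr7 and Stard4) were lower in both, where all genes gave 30.4% and 34.7%. Of the 10 fatty acid genes 7 were higher in both pairs, against 38.7% of genes above the medians. The exceptions were Elovl6 and Fads1, with the signs of most sterol genes, and Srebf1, which went the other way. Every one of the 20 sterol genes had a higher ratio in the ES pair than in the plain pair, as did 6 of 10 fatty acid genes, 50.3% of all genes and 54.5% of genes above the medians. A limma fit took the pair as a block, with p-values adjusted by Benjamini-Hochberg across all 45037 probe sets. In it 1 of the 30 genes rose in SACCs over both pairs, Scd1, and none fell. Of all genes 0.936% passed as higher and 1.04% as lower. At an unadjusted p under 0.05, limma gave 5 fatty acid genes as higher and 1 sterol gene, Pmvk, as lower, against 12.1% and 8.78% of all genes. Opposite ratios in the pairs enlarge the error of a gene's mean in this test, so the sterol arm is described by its ratios.

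**Figure D1:**
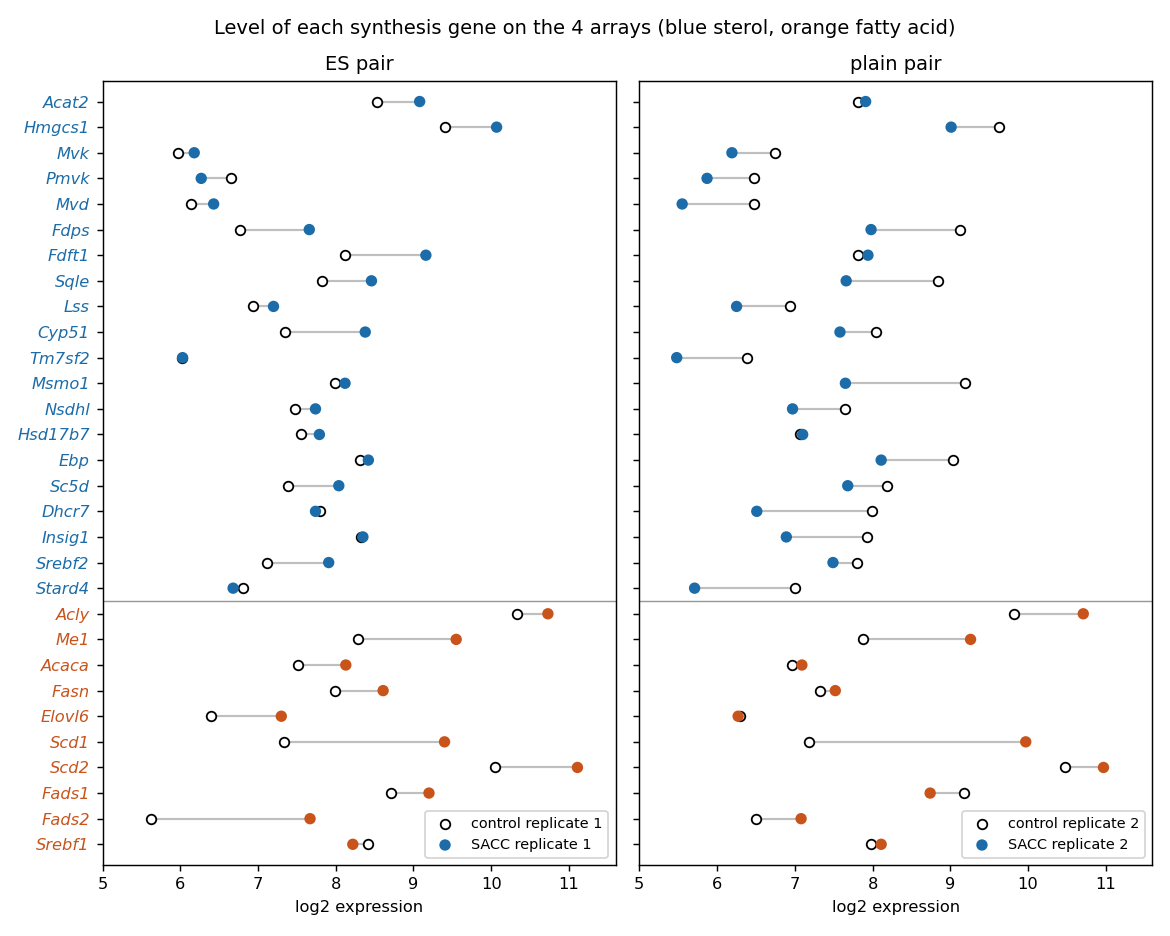
Log2 expression (horizontal axis) of the 30 measured genes in pathway order, in the ES pair (left) and the plain pair (right), with controls as open circles and SACCs as filled circles (blue sterol arm, orange fatty acid arm), 1 array each. In the plain pair 17 of 20 sterol genes lie to the left of their control, in the ES pair 17 lie to the right, and most fatty acid genes lie to the right in both.

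The mevalonate steps come first in the sterol arm. Hmgcs1, which condenses acetyl-CoA and acetoacetyl-CoA to HMG-CoA, stood at 10.07 in SACC replicate 1 and 9.4 in control replicate 1, and at 9.01 in SACC replicate 2 and 9.62 in control replicate 2. The SACC array was thus the higher in the ES pair and the lower in the plain pair, and all 4 probe sets of the gene gave the same signs. Its ratios were 0.67 and -0.61, with a mean of 0.03 ± 0.36 (SE, n = 2 pairs).

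Fdps, which makes farnesyl diphosphate, the last step shared with other isoprenoids, had the widest gap between pairs of all 30 genes. Its levels were 7.66 and 6.77 in the SACC and control of the ES pair, and 7.98 and 9.12 in those of the plain pair. Across the tables, the control of the ES pair was the lowest of the 4 arrays and the control of the plain pair the highest, and the ratios were 0.89 and -1.14. Mvd, the decarboxylase that yields isopentenyl diphosphate, had ratios of 0.29 and -0.93, and the mevalonate kinase Mvk 0.21 and -0.55. The phosphomevalonate kinase Pmvk was lower in both pairs, with ratios of -0.38 and -0.61 and a mean of -0.5 ± 0.17 (limma adjusted p 0.271). Acat2, the cytosolic thiolase that supplies acetoacetyl-CoA, was higher in both, by 0.55 and 0.1.

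The steps from squalene to cholesterol followed. Fdft1, squalene synthase, stood at 9.16 against 8.12 in the ES pair and at 7.94 against 7.81 in the plain pair, so only the ES pair was 2-fold apart. Sqle, squalene epoxidase, a flux-controlling enzyme of the pathway, had levels of 8.46 and 7.82 in SACC and control of the ES pair and 7.66 and 8.84 in those of the plain pair. The control of the plain pair was its highest array, and its SACC partner the lowest. The ratios of Sqle were 0.64 and -1.18, a mean of -0.27 ± 0.48 (SE, n = 2 pairs).

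Cyp51, which demethylates lanosterol, stood at 8.38 and 7.35 in the ES pair and at 7.58 and 8.05 in the plain pair, ratios of 1.03 and -0.47 that all 3 probe sets repeated in sign. Fdft1 and Cyp51 were the 2 sterol genes at least 2-fold higher in the ES pair, where 6.51% of all genes were, and none was 2-fold lower, against 4.08%. Both lie just past 2-fold, and after quantile normalization over the 4 arrays neither did.

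The lowest ratios of the plain pair were in late steps. Msmo1, a C4 methylsterol oxidase, had levels of 8.12 and 7.99 in SACC and control of the ES pair and of 7.65 and 9.19 in the plain pair. Its plain pair ratio of -1.54 was the lowest of all 30 genes, a 2.91-fold lower level in SACCs, while its ES ratio was 0.13. Dhcr7, which makes cholesterol from 7-dehydrocholesterol, stood at 7.74 and 7.8 in the ES pair and at 6.51 and 7.99 in the plain pair. Here 3 arrays lay close together and the SACCs in plain medium stood below them, with ratios of -0.06 and -1.48 and a mean of -0.77 ± 0.39 (SE, n = 2 pairs; limma adjusted p 0.436). Ebp, the sterol isomerase, had ratios of 0.11 and -0.92, and the sterol reductase Tm7sf2 0.01 and -0.91. For the dehydrogenase Nsdhl the ratios were 0.26 and -0.67, for lanosterol synthase Lss 0.26 and -0.69, and for the desaturase Sc5d 0.66 and -0.5. Hsd17b7, a ketosteroid reductase of the same steps, had 0.23 and 0.04. For Lss, Sc5d and Hsd17b7 other probe sets above the medians gave other signs. Another set of Lss had ratios of -0.51 and -0.43, and other sets of Sc5d had 0.48 and 0.16, and -0.5 and 0.18. Another set of Hsd17b7 had 0.16 and -0.42, so its direction in the plain pair depends on the probe set.

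The regulators of the sterol arm behaved like the enzymes in the plain pair. Insig1, which retains SREBP in the endoplasmic reticulum and is itself an SREBP target, stood at 8.35 in SACCs and 8.33 in controls of the ES pair, and at 6.89 and 7.93 in those of the plain pair. Stard4, a sterol carrier, stood at 6.68 and 6.81, and at 5.71 and 7. In both genes the SACCs in plain medium were the lowest array, with plain pair ratios of -1.04 and -1.29. The ES ratio of Stard4 was -0.13 by this probe set and 0.53 by each of its other 2. Srebf2 had ratios of 0.79 and -0.31, but its second probe set gave -0.15 and -0.44, so its direction in the ES pair depends on the probe set. Of the 15 genes with several probe sets above the medians of all 4 arrays, signs were mixed for 4 in the ES pair, and for 2 in the plain pair. In all, 6 sterol genes were at least 2-fold lower in the plain pair (Fdps, Sqle, Msmo1, Dhcr7, Insig1 and Stard4), where 5.19% of all genes were.

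**Figure D2:**
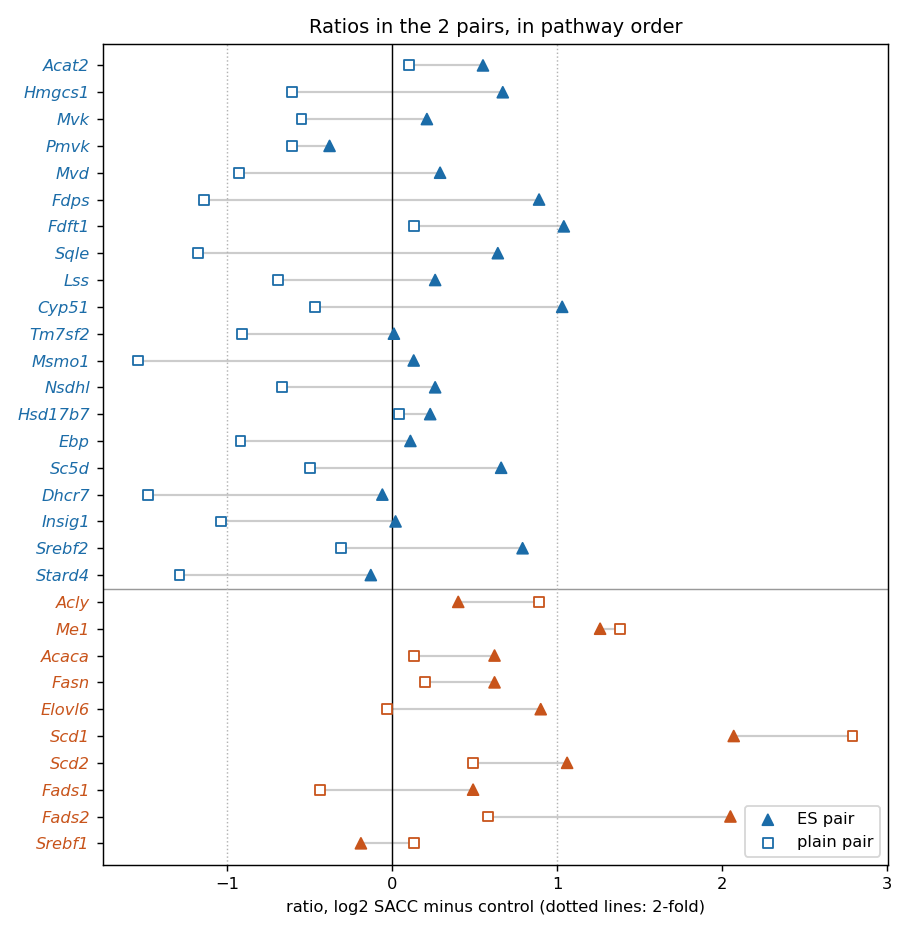
Ratio (log2 SACC minus control) of each gene, with triangles for the ES pair and open squares for the plain pair, 1 array per group and pair, with blue for the sterol arm and orange for the fatty acid arm. Every blue triangle lies to the right of its square, by 2.03 for Fdps, whereas Scd1 and Me1 lie beyond 2-fold in both pairs.

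In the fatty acid arm Scd1, the desaturase that makes oleate and palmitoleate from saturated chains, had the largest ratios. Its levels were 9.4 in SACC replicate 1 and 9.97 in SACC replicate 2, against 7.33 and 7.18 in their controls. Scd1 rose by 2.43 ± 0.24 (SE, n = 2 pairs; limma adjusted p 0.0487), a 5.39-fold higher level in SACCs, and its second probe set had ratios of 2 and 1.63. The call lies at the edge of the threshold and is lost after centring the arrays on their medians (limma adjusted p 0.0636) and without the pair as a block (0.16). Fits that left out 1 array each also lacked the block, and gave ratios of 2.145 to 2.715 with limma adjusted p of 0.304 to 0.664. Adipocytes, which hold much Scd1, were looked for by their markers. Of 7 measured, 4 (Adipoq, Cidec, Lep and Cfd) lay below the median on all 4 arrays, as did 6637 of all 19761 genes. The other 3, Pparg, Fabp4 and Retn, lay above it on all 4, and none of these had a positive ratio in either pair. Pparg had ratios of -1.02 and -1.61, Fabp4 of -0.04 and -1.91, and Retn of -0.5 and -0.23. Adipoq, at levels below the medians, was the 1 marker higher in both pairs (0.54 and 0.1), and 4 were lower in both. The summed linear level of the list was 846.5 and 578.6 on the SACC arrays of the ES and plain pair and 919.8 and 1991 on the controls. Most of this sum was Fabp4, at log2 levels of 9.55 and 8.94 in SACCs and 9.59 and 10.85 in controls. Macrophage markers were lower in SACCs of both pairs too, with medians of -1.97 and -1.9. The part of that shift in the ratios of Pparg and Fabp4 was not tested, nor was the part of adipocytes in those of Scd1.

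Me1, the malic enzyme, which supplies NADPH for fatty acid synthesis, was the steadiest. It stood at 9.55 and 9.26 in SACCs and at 8.29 and 7.88 in controls, ratios of 1.26 and 1.38. Its mean ratio was 1.32 ± 0.16 (SE, n = 2 pairs), a 2.5-fold higher level, with a limma adjusted p of 0.0581, and 2 of 2 probe sets gave the same signs. Scd1 and Me1 were the 2 fatty acid genes at least 2-fold higher in both pairs, where 3.38% of all genes were. Fads2, the delta-6 desaturase of polyunsaturated fatty acids, had levels of 7.67 and 5.62 in the SACC and control of the ES pair and 7.08 and 6.5 in those of the plain pair. Its ratios were 2.05 and 0.58 (mean 1.32 ± 0.4, limma adjusted p 0.235). Another probe set of Fads2 above the medians of all 4 arrays gave 1.06 and 0.57, so the size of its ES ratio depends on the probe set. Scd2, the desaturase isoform common outside the liver, had ratios of 1.06 and 0.49. Scd1, Me1, Fads2 and Scd2 were the 4 fatty acid genes at least 2-fold higher in the ES pair, and Scd1 and Me1 the 2 in the plain pair, where 6.01% of all genes were.

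Smaller ratios were found for the entry enzymes by their brightest probe sets. Acly, the citrate lyase that releases cytosolic acetyl-CoA for both arms, had ratios of 0.4 and 0.89 (mean 0.65 ± 0.2, limma adjusted p 0.24). Other probe sets of Acly above the medians of all 4 arrays gave 1.44 and 0.82, and 1.04 and 0.43. By these Acly was more than 2-fold higher in the ES pair, so the size of its ratios depends on the probe set. The direction of Acly was that of the fatty acid arm in both pairs. Acaca, the acetyl-CoA carboxylase, had 0.62 and 0.13, and Fasn, fatty acid synthase, 0.62 and 0.2. The elongase Elovl6 had 0.9 and -0.03, and the delta-5 desaturase Fads1 0.49 and -0.44. Srebf1 itself lay between 7.98 and 8.41 on the 4 arrays, with ratios of -0.19 and 0.13, so its transcript level did not follow that of Scd1 or Me1.

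**Figure D3:**
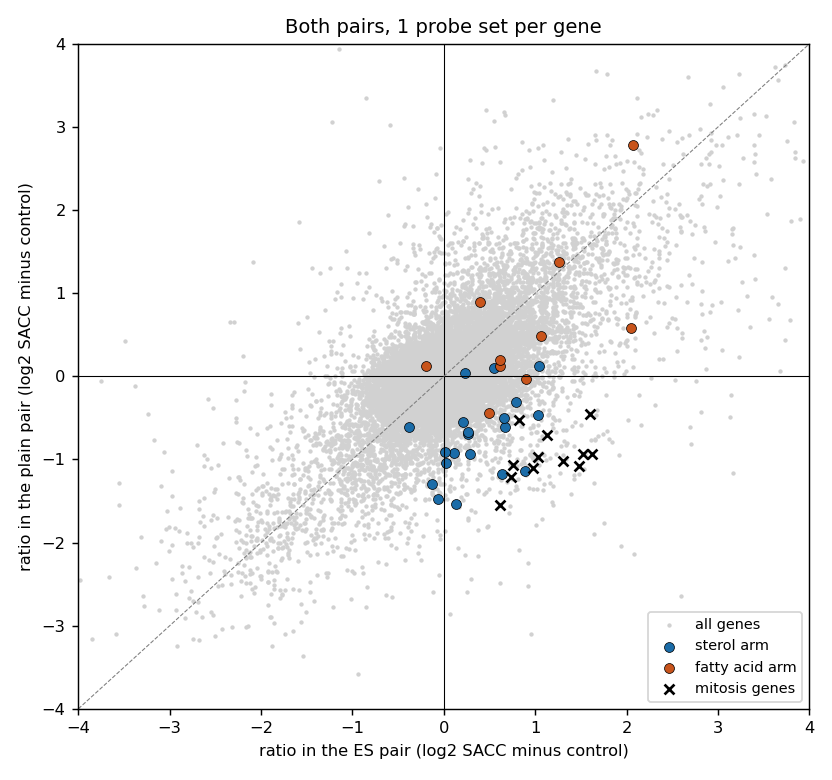
Ratio in the ES pair (horizontal) against ratio in the plain pair (vertical), both log2 SACC minus control, for 19761 genes (grey; 30 lie outside the axes), the sterol arm (blue), the fatty acid arm (orange) and 12 mitosis genes (crosses). All 20 blue points and all 12 crosses lie below the dashed line of equal ratios, and 14 blue points and all 12 crosses lie in the lower right, above 0 in the ES pair and below 0 in the plain pair.

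The next question was which arrays carried the opposite ratios of the sterol arm, since both controls were grown in plain medium. Each cell state was set against itself across the pairs, less the median difference of all probe sets (0.17 for SACCs and 0.2 for controls). Since the tables appear to have been normalized separately, these values rest on that centring, with 1 array on each side and no test. Sterol genes were higher in the SACCs in ES medium than in those in plain medium by a median of 0.62. Above 0 were 18 of 20, against 9761 of all 19761 genes. In the control of the ES pair sterol genes were lower than in the control of the plain pair, by a median of -0.48. Below 0 were 16 of 20, against 10520 of all 19761 genes. The SACC arrays and the control arrays thus differed in opposite directions. Insig1 and Dhcr7 differed mainly between the SACCs (1.29 and 1.06, against 0.2 and -0.39 between the controls). Fdps and Msmo1 differed mainly between the controls (-2.55 and -1.4, against -0.49 and 0.3 between the SACCs). The fatty acid arm had medians of 0.21 between the SACCs and 0.08 between the controls.

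**Figure D4:**
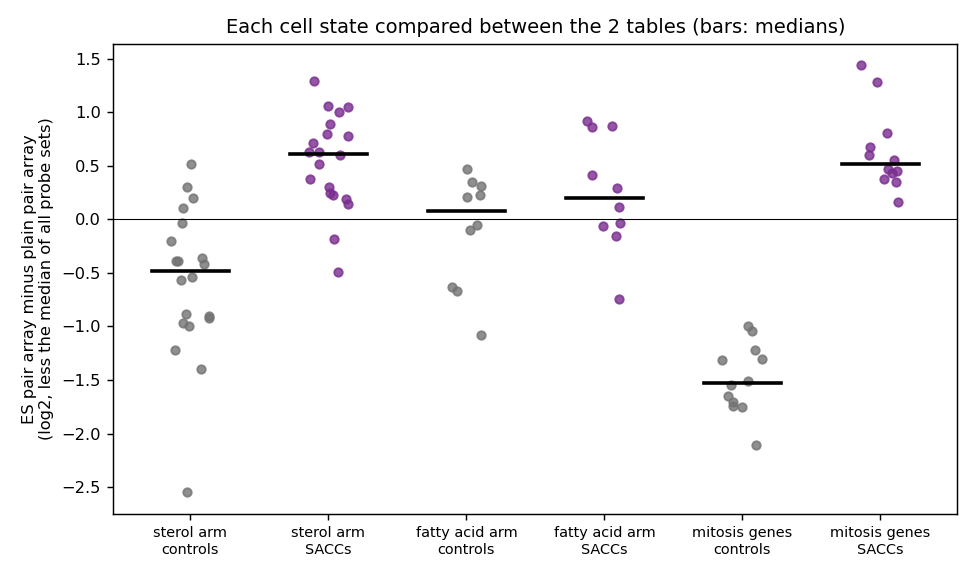
ES pair array minus plain pair array (vertical axis, log2, less the median of all probe sets) for the controls (grey) and the SACCs (purple), with a point per gene and bars at the medians. Sterol genes have medians of -0.48 in controls and 0.62 in SACCs, fatty acid genes 0.08 and 0.21, and mitosis genes -1.53 and 0.52.

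Markers of cell division moved with the sterol arm. All 12 mitosis genes had positive ratios in the ES pair and negative ones in the plain pair, as did 16.5% of all genes. Their medians were 1.08 and -1, and Mki67 had ratios of 0.74 and -1.21. Their summed linear level was 2436 and 1384 on the SACC arrays of the ES and plain pair and 1094 and 2691 on the controls. Of 6 measured neutrophil genes 5 had the same signs, as did 16.5% of all genes. The list had medians of 1.86 and -1.47. Its summed levels were 1309 and 2494 on the SACC arrays and 258.4 and 4488 on the controls. The other gene, Camp, was higher in both pairs (1.62 and 1.54, limma adjusted p 0.0487). Set across the pairs as above, the neutrophil list had medians of -1.415 between the SACCs and -4.33 between the controls. The sterol arm had 0.62 and -0.48. The part of either list in the ratios of the sterol arm was not tested.

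Markers of macrophages and of fibroblasts were shifted alike in both pairs. All 12 macrophage genes were lower in SACCs of both pairs, as were 34.7% of all genes, with medians of -1.97 and -1.9. Their summed linear level was 13430 and 19340 on the SACC arrays against 51310 and 56520 on the controls. All 10 fibroblast genes were higher in both, as were 30.4% of all genes, with medians of 1.41 and 1.7. Their summed levels were 65300 and 52790 against 29170 and 16650. Single ratios ran from -2.97 to -1.08 for macrophage genes and from 0.51 (Thy1, ES pair) to 2.32 for fibroblast genes. At limma's adjusted threshold 5 macrophage genes passed as lower and 3 fibroblast genes as higher, against 1.04% and 0.936% of all genes. In these bulk samples fewer cells of a type and less RNA per cell cannot be told apart, and the part of this shift in the ratios of the fatty acid arm was not tested. Of 8 B and T cell genes 5 lay below the median of every array, as did 2 of 6 endothelial genes. Of all 19761 genes 6637 did. The endothelial genes had medians of 0.61 and 0.145, with 4 higher in both pairs and 2 in the ES pair only. Of all genes 30.4% and 16.5% were.

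Other genes of these pathways were read from lists. Of 12 further genes of sterol and isoprenoid synthesis and its control, none passed limma's adjusted threshold, with 2 higher and 1 lower at an unadjusted p under 0.05, where 12.1% and 8.78% of all genes were. The list had medians of 0.23 and -0.18. By sign, 5 of the 12 were higher in both pairs, 4 lower in both and 3 higher in the ES pair only. Of all genes 30.4%, 34.7% and 16.5% were. The ratio was higher in the ES pair for 6 of the 12, against 50.3% of all genes and all 20 genes of the sterol arm. Ggps1, which makes geranylgeranyl diphosphate from farnesyl diphosphate, was higher in both pairs (0.43 and 1.53). The SREBP protease Mbtps2 was lower in both (-0.53 and -0.74).

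Among 15 further fatty acid genes none passed the adjusted threshold in limma, and 3 were higher and none lower at an unadjusted p under 0.05, against 12.1% and 8.78% of all genes. The list had medians of 0.11 and 0.18. Below the median of every array were 5 of its 15 genes, against 6637 of all 19761 genes. Acss2, which makes acetyl-CoA from acetate, had ratios of 1.25 and 1.16 and a mean of 1.21 ± 0.16 (SE, n = 2 pairs; limma adjusted p 0.0647). Gpam, the first acyltransferase of glycerolipid synthesis, had 0.6 and 0.7, and the desaturase-like Fads3 0.7 and 0.43.

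Of 12 genes that burn fatty acids 10 had positive ratios in both pairs, against 30.4% of all genes and 38.7% of those above the medians, with medians of 0.65 and 0.3. None passed the adjusted threshold in limma, and 6 were higher and none lower at an unadjusted p under 0.05, against 12.1% and 8.78% of all genes. Acadvl, the very long chain acyl-CoA dehydrogenase, had ratios of 0.7 and 0.74, and Cpt1a, which admits fatty acids to mitochondria, 0.88 and 0.44.

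LXR and its targets were read as well. Of 8 genes 5 were lower in both pairs, where 34.7% of all genes were, with medians of -0.57 and -0.48, none passed the adjusted threshold in limma, and 3 were lower and none higher at an unadjusted p under 0.05, against 8.78% and 12.1% of all genes. The cholesterol exporters Abca1 (-1.32 and -0.66) and Abcg1 (-0.58 and -1.49) and the lipoprotein Apoe (-1.09 and -0.83) had the lowest mean ratios. All 3 are abundant in macrophages, whose markers were lower in the same arrays, and the part of that shift in these ratios was not tested.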

How the data were processed

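Total RNA of 2 SACC and 2 control samples was read on Affymetrix arrays after conversion to biotinylated cRNA, per the labels' protocols. Values are log2 expression as the authors deposited it, with the 2 arrays of a pair in a table of their own. The submitters' processing notes give Transcriptome Analysis Console as the software, with no version, and for summarisation, background correction, normalization and build the step is not given in the sources used here. Between sorted values the largest gap was 0.14 and 0.2 within the tables and 0.28 across them, so ratios were taken within a table. One more table repeated all 180148 entries. Precision is limited by the number of arrays, which have no read depth.

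Testing used lmFit and eBayes of limma 3.58.1 under R 4.3.3 on the log2 values as deposited, with group and pair as terms (1 residual degree of freedom, 2.97 prior degrees of freedom, prior SD 0.181) and Benjamini-Hochberg adjustment over 45037 probe sets at 0.05. Each ± is the moderated standard error. The pairing comes from the labels and, with 2 pairs, was not tested on the values. A ratio of a single pair has 1 array on each side, and such ratios were counted at 2-fold with no test. Symbols came from the tables, and probe sets with several symbols were not used. The procedure was run on simulated data, with noise drawn from the fitted prior and equal changes in both pairs. That run cannot speak to ratios that differ between the pairs. The genes and all lists were chosen with earlier results of these data known. All members could be named, and of other lists at most the 3 genes with the largest mean ratio that lay above an array median, with Mki67 in any case. Some genes that this rule names are not reported here. The adipocyte markers below the medians were named after their values were seen. Alternatives were the fit without the block, median centring, quantile normalization, a filter on dim probe sets, eBayes with a trend or robust, other probe set rules, a 1.5-fold threshold and leaving out each array.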

Additional observations from a re-analysis of the deposited data

Results flagged for a closer look

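Results are listed here where the ratios of the ES pair and the plain pair had opposite signs, whatever their size. Each pair had 1 array per group, so none of these differences was tested. Some ratios were small, such as 0.01 for Tm7sf2 and 0.02 for Insig1 in the ES pair and -0.03 for Elovl6 in the plain pair. The medians of the sterol arm had opposite signs, with that of the ES pair 0.94 above that of the plain pair. For single genes the same difference, ES minus plain, was 2.03 for Fdps, 1.82 for Sqle, 1.67 for Msmo1, 1.5 for Cyp51 and 1.28 for Hmgcs1. It was 1.22 for Mvd, 1.16 for Sc5d, 1.1 for Srebf2, 1.06 for Insig1 and 1.03 for Ebp. Lss (0.95), Nsdhl (0.93), Tm7sf2 (0.92) and Mvk (0.76) completed the 14 sterol genes of this kind. In the fatty acid arm Elovl6 and Fads1 each differed by 0.93, and Srebf1 went the other way with -0.32.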

How the results depend on the processing

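Among the 30 genes, limma's call for Scd1 alone turned into 0 calls without the pair block (no replicate block, 0 of all probe sets called), with each array centred on its median (0), and with any array left out in the fit without the block (0 to 0, also over all probe sets). Those fits had smallest adjusted p of 0.16, 0.0636 and 0.304 to 0.664, and 3497, 7405 and 2264 to 3535 probe sets (4, 5 and 4 to 5 of the 30 genes) at an unadjusted p under 0.05. Both Scd1 and Me1 passed, making 2 genes, after quantile normalization, with dim probe sets left out and with robust eBayes, and calls over all probe sets went from 587 to 2045, 1326 and 2623, or 898 with a trend. With the mean of all probe sets of a gene the arms lay 0.758 apart in the plain pair, 1 sterol gene was higher in both pairs, 0 were 2-fold higher in the ES pair, and 3 were 2-fold lower with plain medium. Quantile normalization also gave 0 sterol genes 2-fold higher in the ES pair. The 14 sterol genes positive in the ES pair and negative in the plain pair became 12 by it, and 16 by the mean of all probe sets. Without probe sets whose ID ends in _x_at or _s_at, a choice made after seeing the data, the arms lay 0.76 apart in the ES pair and 1 sterol gene was higher in both pairs. The same choice gave 5 fatty acid genes at least 2-fold higher in the ES pair. At 1.5-fold, the ES pair had 7 sterol and 7 fatty acid genes above the threshold, while the plain pair had 13 sterol genes below it. The arm medians of each pair kept their sign under all alternatives run on them, and leaving out an array ends its pair, so those medians have no such value. Mean ratios changed sign for 19 genes, all on leaving out 1 array in the fit without the block. They then ran from -0.26 to 0.91 for Acat2, -0.5 to 0.56 for Hmgcs1, -0.555 to 0.215 for Mvk, -0.76 to 0.12 for Mvd, -1.3 to 1.05 for Fdps and -0.025 to 1.195 for Fdft1. The range was -0.78 to 0.24 for Sqle, -0.69 to 0.26 for Lss, -0.12 to 0.68 for Cyp51, -0.59 to 0.18 for Nsdhl, -0.21 to 0.48 for Hsd17b7 and -0.32 to 0.48 for Sc5d. It was -1.24 to 0.22 for Insig1, -0.1 to 0.58 for Srebf2, -0.145 to 0.895 for Acaca, -0.135 to 0.955 for Fasn, -0.08 to 0.95 for Elovl6, -0.21 to 0.26 for Fads1 and -0.245 to 0.185 for Srebf1. These fits compare values across tables, and the cause of the changes was not tested.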
